A study of Mus musculus with 4 samples.

Results

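The genes described here encode proteoglycans, tenascins, other secreted matrix proteins and the metalloproteases that cut them, together with their inhibitors. They were chosen by gene name: every row of the deposited table whose symbol belongs to the Cspg, lectican, tenascin, glypican, syndecan, Hapln, thrombospondin, fibulin, Adam, Adamts, Mmp or Timp families, or is Ptprz1, Hspg2, Bgn, Sparc or Sparcl1. The rule took 53 of the 6940 genes in the table. Of the 118 protein-coding genes with such names in GENCODE M21, 65 were not analysed here, among them Cspg4, Tnc, Hapln1, Timp3, Timp4 and Mmp9.

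Messenger RNA was sequenced from 2 libraries of conditional knockout (cKO) cells, genotype Olig1cre/+;Zdhhc5fl/fl, and 2 libraries of control cells, genotype Zdhhc5fl/fl. Zdhhc5 encodes an enzyme that attaches palmitate to proteins, and both genotypes carry its floxed alleles. Cre in the Olig1 locus acts in the oligodendrocyte lineage and was present in the cKO cells only, so an effect of Cre or of the altered Olig1 locus cannot be told apart from that of deleting Zdhhc5. Cells came from the cortex of C57BL/6 mice at postnatal day 5, were enriched on antibodies against GalC and O4, grew for 6 days and were collected 24 h after a change to medium with 40 ng/mL triiodothyronine. No label ties the 2 libraries per genotype to separate animals or cultures, so the p-values measure only the spread between these libraries, which may be technical.

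Most brain matrix lacks collagen fibres. Its scaffold is hyaluronan, to which the lecticans (aggrecan, brevican, neurocan and versican) bind at one end while tenascins tie their other ends together, and link proteins of the Hapln family lock lectican and hyaluronan to each other. Oligodendrocyte precursors and astrocytes make much of this material. ADAMTS and MMP enzymes cut it, ADAM enzymes shed proteins from cell surfaces, and TIMP proteins block the enzymes.

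Values are normalised reads per gene, and levels are compared between members only as normalised reads per kb of gene length. Sums of cell markers and the rank of the marker Gfap use normalised reads not divided by length. The table held 20068016 and 13672254 recovered reads in cKO 1 and cKO 2, against 17077509 and 16773675 in control 1 and control 2, over the listed genes only. It lists genes that the authors had already called, and limma called 100% of its 6940 genes at an adjusted p under 0.05, so a call of a member carries no information beyond its being listed. Direction is read against the whole table, in which 46.7% of genes were higher and 53.3% lower in cKO cells. Another scaling, by relative log expression over the listed genes, raised all log2 fold changes by a median of 0.19, so directions are relative to the authors' scaling. Zdhhc5 itself was not analysed here, and the genotype labels were not checked by it.

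Markers of the labelled cell type were present in all libraries but were lower in cKO cells. Markers of other cells were present as well, and those of astrocytes were abundant. The 9 myelin and differentiation markers summed to 69774 and 72001 normalised reads in the cKO libraries, against 341300 and 343010 in the controls, and all 9 fell. The 6 listed precursor and lineage markers out of 7 fell as well (Lhfpl3, Sox10, Gpr17, Pdgfra, Olig2 and Cacng4). The 6 summed to 23299 and 22813 in the cKO libraries, against 52119 and 52578 in the controls. Of 12 astrocyte markers 11 were listed, 9 higher and 2 lower, the 2 being S100b (3.09-fold lower) and Aqp4 (1.12-fold lower). The 11 summed to 771559 and 764521 in the cKO libraries, against 511353 and 512203 in the controls. Most of these sums was the astrocyte filament gene Gfap, with 557247 and 553584 in the cKO libraries, against 351481 and 352111 in the controls. Gfap ranked 1 by value among the listed genes in every library. Of 12 pericyte and fibroblast markers 10 were listed and all 10 rose, to sums of 14602 and 14066 in the cKO libraries, against 5292 and 4987 in the controls. The 5 listed microglia markers out of 12 rose too, with sums of 3770 and 3974 in the cKO libraries, against 2686 and 2611 in the controls. Of 12 neuron markers 10 were listed, 8 higher and 2 lower, the 2 being Map2 (1.43-fold lower) and Dcx (1.32-fold lower). The 10 summed to 17749 and 17532 in the cKO libraries, against a larger 18610 and 18926 in the controls. Of 10 endothelium markers 4 were listed, 3 higher and 1 lower (Kdr). They summed to 250 and 248 in the cKO libraries, against 229 and 192 in the controls. No listed marker was at 0 in any library. In bulk RNA, fewer cells of a type and less RNA per cell cannot be told apart.

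Of the 53 members 38 were higher and 15 lower in cKO cells, and none overlapped between the genotypes: 38 genes had their 2 cKO values above their 2 control values, as did 46.7% of all listed genes, and 15 had them below, as did 53.3%. The median log2 fold change of the members was 0.48, beside -0.22 over all listed genes. Changes of at least 2-fold were seen upward in 12 members (5.73% of all listed genes) and downward in 5 (11.8%). Some families moved one way and others were split. All 5 listed lecticans and link proteins and the listed tenascin fell. The listed secreted MMPs, thrombospondins, fibulins, ADAMTS-like proteins and TIMPs were all higher, as were Sparc, Sparcl1 and biglycan, although Fbln2 lay below 0 with the GC trend removed. The ADAM genes (3 higher, 5 lower), ADAMTS genes (5 and 2), membrane-type MMPs (4 and 1) and heparan sulfate proteoglycans (7 and 1) went both ways. With the trends with GC content and gene length removed, 37 members lay above and 16 below 0. Over all listed genes 3018 then lay above and 3916 below 0.

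**Figure D1:**
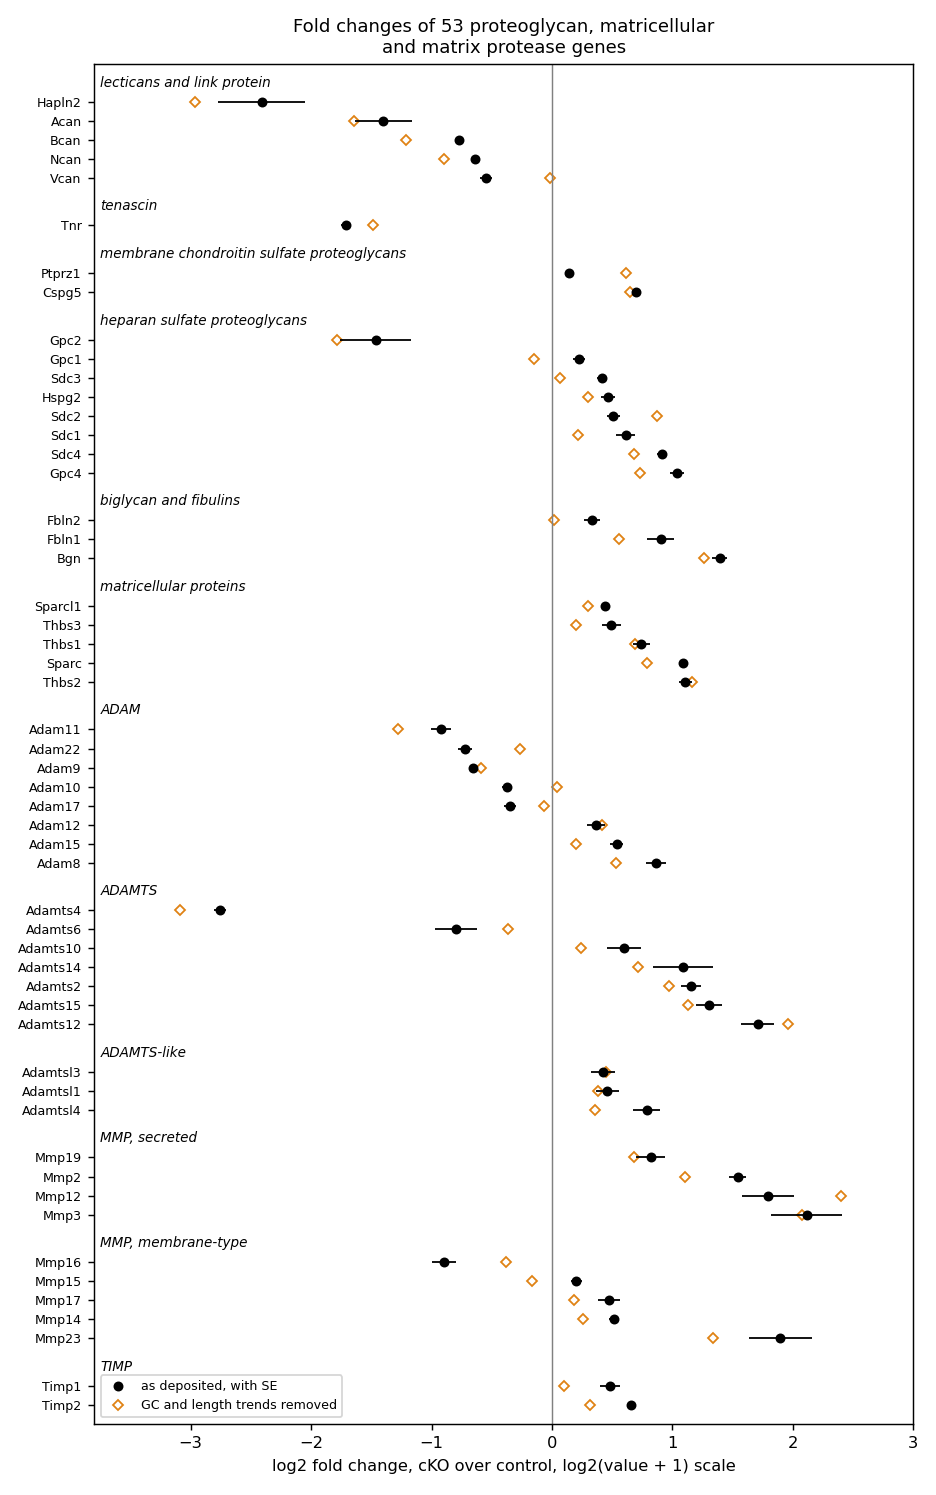
Log2 fold change (cKO over control, on the log2(value + 1) scale) of each of the 53 members, grouped by role, with the standard error from limma (black points and bars), and the log2 fold change once the trends with GC content and gene length were removed (open diamonds). Lecticans, Hapln2 and Tnr sit left of 0, with Vcan at -0.02 in the second reading, and secreted MMPs sit right of 0 in both readings.

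These 5 promoters are shown because they belong to members among the 10 largest falls and 10 largest rises and because 4 of them form neighbouring pairs that moved together. Hapln2 and Bcan lie 21.5 kb apart on chromosome 3 with no other listed gene between them, and both fell. Mmp12 and Mmp3 lie 76.3 kb apart on chromosome 9, again with no listed gene between them, and both rose. Each window runs from 250 bases before to 50 after the gene's start in RefSeq (GRCm38.p6) and is given 5′ to 3′ on the gene's own strand. Capitals mark matches, on either strand, to any of 5 motifs. The letters searched were TGANTCA for AP-1 and TTCNNNGAA for STAT factors. For SOX factors they were ACAAAG, for a TATA box TATAAA and for a GC box GGGCGG.
Hapln2, chr3:88027462-88027761, minus strand: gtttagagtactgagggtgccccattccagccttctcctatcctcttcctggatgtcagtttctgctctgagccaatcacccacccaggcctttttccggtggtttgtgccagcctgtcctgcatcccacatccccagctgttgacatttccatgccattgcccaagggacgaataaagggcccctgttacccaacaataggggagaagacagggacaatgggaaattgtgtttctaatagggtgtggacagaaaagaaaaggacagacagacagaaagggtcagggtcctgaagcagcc
Bcan, chr3:88000307-88000606, minus strand: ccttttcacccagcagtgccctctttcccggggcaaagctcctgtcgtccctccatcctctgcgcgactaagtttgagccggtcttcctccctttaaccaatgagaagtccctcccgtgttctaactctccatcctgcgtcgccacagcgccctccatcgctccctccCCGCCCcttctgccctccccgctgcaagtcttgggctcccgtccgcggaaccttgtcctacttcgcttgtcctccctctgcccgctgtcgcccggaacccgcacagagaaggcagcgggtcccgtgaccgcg
Tnr, chr1:159523519-159523818, plus strand: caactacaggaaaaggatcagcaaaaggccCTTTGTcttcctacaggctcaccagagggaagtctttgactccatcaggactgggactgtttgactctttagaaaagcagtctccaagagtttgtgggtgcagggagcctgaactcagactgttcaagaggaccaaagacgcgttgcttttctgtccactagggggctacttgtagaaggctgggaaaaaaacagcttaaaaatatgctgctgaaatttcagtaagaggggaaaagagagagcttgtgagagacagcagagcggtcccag
Mmp12, chr9:7344147-7344446, plus strand: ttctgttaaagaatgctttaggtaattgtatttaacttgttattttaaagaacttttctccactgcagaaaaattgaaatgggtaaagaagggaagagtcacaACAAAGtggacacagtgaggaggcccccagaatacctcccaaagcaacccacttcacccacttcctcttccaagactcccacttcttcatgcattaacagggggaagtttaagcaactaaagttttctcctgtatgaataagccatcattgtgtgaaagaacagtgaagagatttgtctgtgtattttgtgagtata
Mmp3, chr9:7445572-7445871, plus strand: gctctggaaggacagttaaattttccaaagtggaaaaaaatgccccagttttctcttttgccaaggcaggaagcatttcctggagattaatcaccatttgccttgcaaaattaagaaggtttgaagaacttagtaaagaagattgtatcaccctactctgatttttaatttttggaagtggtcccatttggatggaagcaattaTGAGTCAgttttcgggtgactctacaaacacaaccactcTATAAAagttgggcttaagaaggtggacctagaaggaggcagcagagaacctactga
The Mmp3 window held an AP-1 match starting 46 bases before the RefSeq start and a TATA box starting 7 bases before it. The windows of Mmp12 and Tnr each held a SOX match, 147 and 220 bases before the start, that of Bcan a GC box, and that of Hapln2 no match. For these 5 windows the RefSeq starts lay 0 to 126 bases from the gene starts in the deposited table. Promoters were at hand for 36 members, and the window nearest the gene start in the deposited table was used for each. Among the 36 the distance was largest for Sparc (3103 bases) and Sdc4 (699 bases), whose windows may not hold the promoter of the measured gene. A further window exists for 3 of the 36 members (Mmp12, Mmp23 and Fbln1). That of Mmp12, whose start lies 2993 bases from the gene start in the table, held an AP-1 and a TATA match. That of Mmp23 held a STAT match and GC boxes, and that of Fbln1 held GC boxes. AP-1 letters were found in 1 of 26 windows of members that rose and 0 of 10 of members that fell, beside 7.81% of 32851 promoter windows, and SOX letters in 3 of 26 and 1 of 10, beside 18.7%. STAT letters were found in 1 of 26 and 0 of 10 (8.3% of all windows), and TATA boxes in 2 of 26 and 1 of 10 (13.6%). GC boxes were found in 19 of 26 and 7 of 10, beside 35.7%. A match describes the letters of a window and is not evidence of binding.

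The lecticans, the hyaluronan-binding chondroitin sulfate proteoglycans, fell together. Ncan, which encodes neurocan (ENSMUSG00000002341, chromosome 8, 70093085 to 70120873), had 30105 and 28772 normalised reads in cKO cells, against 45741 and 46062 in control cells. Bcan, which encodes brevican, the main lectican of the adult brain (ENSMUSG00000004892, chromosome 3, 87987531 to 88000230), had 11380 and 10285 in cKO cells, against 18287 and 18626 in controls. Each cKO value lay well below both control values, 1.56-fold lower on average for Ncan (log2 fold change -0.64, SE 0.03, adjusted p 2.66e-15) and 1.70-fold lower for Bcan (log2 fold change -0.77, SE 0.04, adjusted p 1.01e-14). Both falls were larger with the GC and length trends removed, the log2 fold changes being -0.89 and -1.21. Vcan, which encodes versican, had 1457 and 1443 normalised reads in cKO cells, against 2145 and 2087 in controls, 1.46-fold lower. Removing the GC trend brought its log2 fold change of -0.54 to -0.19, and removing length as well to -0.02 (adjusted p 1). Acan, which encodes the cartilage and perineuronal net proteoglycan aggrecan, was rare, with 29.4 and 40.3 in cKO cells against 97.0 and 88.6 in controls (log2 fold change -1.40, SE 0.24, adjusted p 1.91e-05).

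Hapln2 fell furthest among the partners of these proteoglycans. It encodes a link protein found at nodes of Ranvier (ENSMUSG00000004894, chromosome 3, 88021750 to 88027583), and it had 8.98 and 9.49 normalised reads in cKO cells, against 54.0 and 52.9 in controls. These values rest on 11 and 8 reads in the cKO libraries and 54 and 52 in the controls, and the 5.79-fold difference had a wide standard error (log2 fold change -2.41, SE 0.36, adjusted p 3.26e-06). Tnr encodes tenascin-R, which crosslinks lecticans and is made by oligodendrocytes (ENSMUSG00000015829, chromosome 1, 159523769 to 159931729). It had 12220 and 11351 normalised reads in cKO cells, against 37762 and 39573 in controls, 3.28-fold lower (log2 fold change -1.71, SE 0.03, adjusted p 3.21e-22). That fall was -1.48 on the log2 scale with the GC and length trends removed. An antisense gene, Gm38039, overlaps 3.44% of the exonic bases of Tnr, and with the strand setting of the counting unknown, reads from overlapping genes cannot be told apart here or in the cases given further on.

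Together the 5 lecticans and link proteins held 14.6% and 13.9% of the summed reads per kb of all members in the cKO libraries, against 25.7% and 25.8% in the controls. Tnr held 1.96% and 1.85% in the cKO libraries, against 6.84% and 7.10% in the controls. By level per kb among the 53 members, Ncan ranked 3 in cKO cells and 2 in control cells, while Tnr ranked 10 in cKO cells and 4 in control cells. These falls occurred in the same libraries in which the precursor, lineage and myelin markers fell, and the part of cell composition in them was not tested.

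The membrane-bound chondroitin sulfate proteoglycans did not follow the lecticans. Cspg5, neuroglycan C, a transmembrane proteoglycan with an EGF-like domain (ENSMUSG00000032482, chromosome 9, 110243783 to 110262576), had 14020 and 13882 normalised reads in cKO cells, against 8718 and 8518 in controls (log2 fold change 0.69, SE 0.03, adjusted p 3.84e-15). Ptprz1, a receptor tyrosine phosphatase that carries chondroitin sulfate and binds tenascins, had 25185 and 24478 in cKO cells, against 22348 and 22586 in controls. The rise of Ptprz1 was small, 1.11-fold (log2 fold change 0.14, adjusted p 0.000186), and without a variance trend in limma the log2 fold change of Ptprz1 had an adjusted p of 0.0716. It was larger with the GC and length trends removed (log2 fold change 0.62, beside 0.65 for Cspg5).

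**Figure D2:**
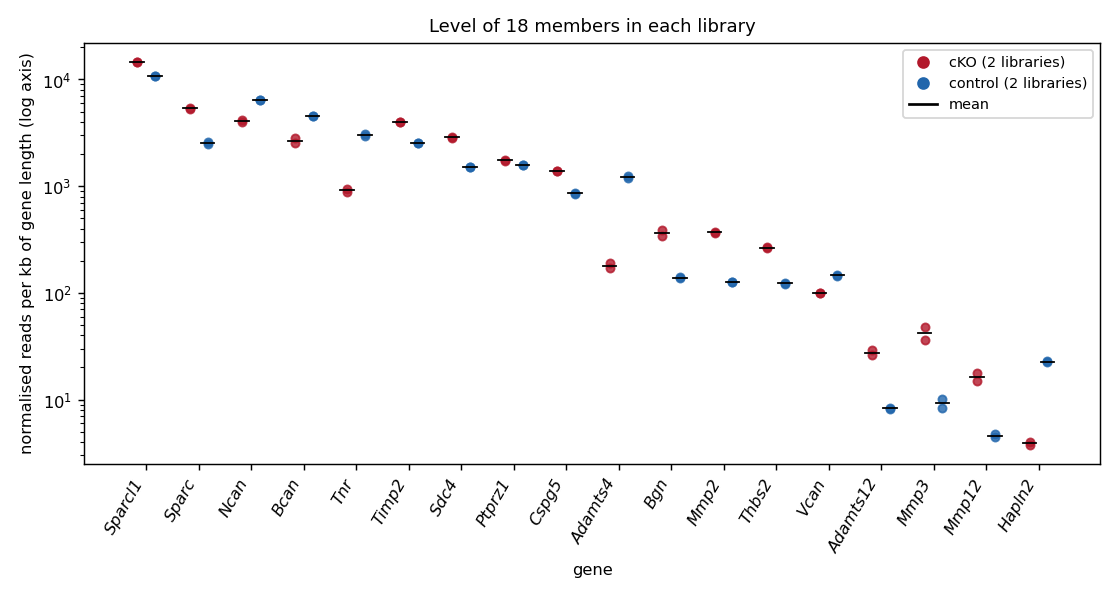
Normalised reads per kb of gene length (log axis) for 18 members in each cKO and control library, with a line at the mean of each genotype. No gene shown has overlapping genotypes; Tnr averaged 916 reads per kb in cKO cells and 3005 in control cells, and Mmp3 averaged 42.1 in cKO cells and 9.25 in control cells.

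Heparan sulfate proteoglycans, which hold growth factors at the cell surface, were higher in 7 of 8 cases, 3 of which (Sdc3, Gpc1 and Hspg2) lay below 0 with the GC trend removed. The summed level of the 8 genes was 6659 and 6601 reads per kb in the cKO libraries, against 4128 and 4197 in the controls, 1.59-fold higher. Syndecans span the membrane, and all 4 were higher. Sdc4, the syndecan of focal adhesions, had 7247 and 7327 normalised reads in cKO cells, against 3847 and 3893 in controls (log2 fold change 0.91, SE 0.04, adjusted p 2.23e-16). Sdc1, Sdc2 and Sdc3 rose 1.53-fold, 1.42-fold and 1.33-fold. Sdc2 rose more once the GC trend was taken out (log2 fold change 1.01, instead of 0.51), while Sdc3 turned to -0.05 (adjusted p 0.494).

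Glypicans, which are anchored to the membrane by a lipid, moved apart. Gpc4, an astrocyte-secreted inducer of synapses, had 1837 and 1844 normalised reads in cKO cells, against 865 and 928 in controls, 2.05-fold higher (log2 fold change 1.04, SE 0.06, adjusted p 1.28e-13). Gpc1 rose 1.17-fold, but its log2 fold change of 0.23 reversed to -0.24 with the GC trend removed and -0.15 with length removed as well, and 18.9% of its exonic bases are shared with Ankmy1 on the opposite strand. Gpc2, a glypican of developing neurons, had 30.2 and 17.8 normalised reads in cKO cells, against 60 and 72.3 in controls (log2 fold change -1.46, SE 0.29, adjusted p 0.000164). Its value is uncertain, since 55.6% of the exonic bases of Gpc2 also belong to Gm43720 on the same strand. Hspg2, perlecan of the basement membrane, rose 1.38-fold, and removing the GC trend took its log2 fold change of 0.47 to -0.01, removing length too to 0.30.

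Sparc, Sparcl1 and the listed thrombospondins, matricellular proteins that tune adhesion without building fibres, all rose. Sparc, which binds collagen (ENSMUSG00000018593, chromosome 11, 55394500 to 55423183), had 20183 and 20506 normalised reads in cKO cells, against 9805 and 9319 in controls, 2.13-fold higher (log2 fold change 1.09, SE 0.03, adjusted p 7.03e-19). Its relative Sparcl1, hevin, an astrocyte protein that promotes synapses, had the highest level per kb of all members in both genotypes. It had 42852 and 42974 normalised reads in cKO cells, against 31490 and 31886 in controls (log2 fold change 0.44, SE 0.03, adjusted p 1.44e-12). By level per kb Sparc ranked 2 in cKO cells and 6 in control cells.

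Thrombospondins bind matrix and cell-surface receptors, and the listed ones rose in the order Thbs2, Thbs1, Thbs3. Thbs2 had 1883 and 1833 normalised reads in cKO cells, against 873 and 850.1 in controls (log2 fold change 1.11, SE 0.06, adjusted p 2.54e-14). Thbs1, an activator of TGF-beta, rose 1.67-fold. Thbs3, of which 6.59% of exonic bases overlap Mtx1 on the opposite strand, rose 1.41-fold, and its log2 fold change of 0.49 was 0.20 (adjusted p 0.0784) with the GC and length trends removed. Bgn, the small proteoglycan biglycan, had 2368 and 2078 normalised reads in cKO cells, against 838 and 852 in controls, 2.63-fold higher (log2 fold change 1.39, SE 0.06, adjusted p 1.35e-15). The listed fibulins, which link elastic fibres and basement membranes, were also higher: Fbln1 rose 1.87-fold and Fbln2 1.26-fold. Removing the GC trend turned the log2 fold change of Fbln2, 0.33, to -0.10. These genes rose in the libraries in which the listed fibroblast markers and 9 of 11 listed astrocyte markers rose, and the part of those cells was not tested.

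**Figure D3:**
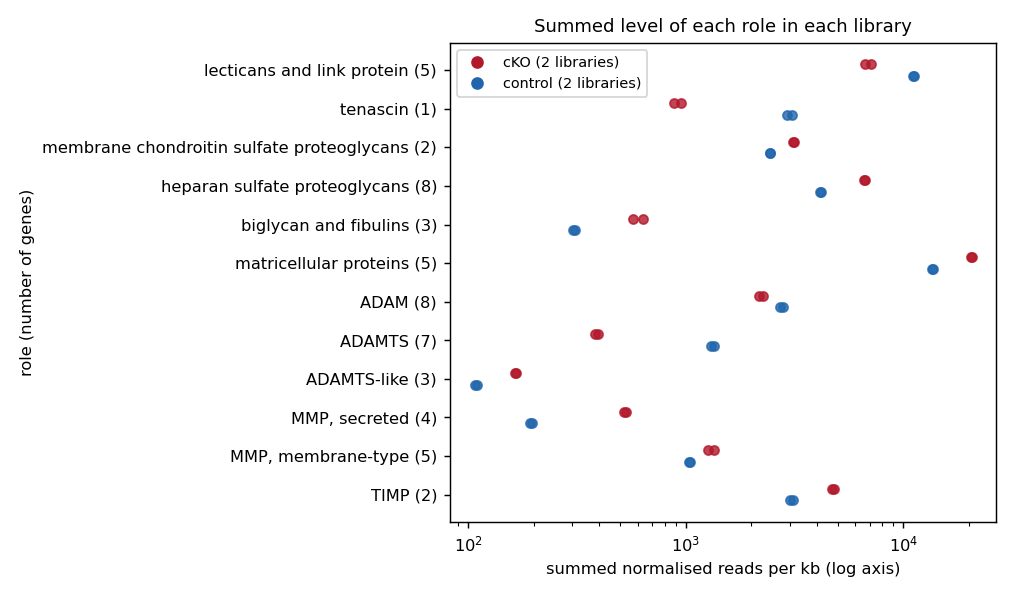
Summed normalised reads per kb (log axis) of the genes of each role in each cKO and control library, with the number of genes in brackets. The cKO libraries lie below the controls for lecticans and link protein, tenascin, ADAM and ADAMTS, and above them for the other 8 roles.

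Among proteases, the ADAMTS family held both the steepest fall and several of the larger rises. Adamts4, an aggrecanase that cuts lecticans and is made by oligodendrocytes (ENSMUSG00000006403, chromosome 1, 171250421 to 171260637), had 819.8 and 909 normalised reads in cKO cells, against 5722 and 5972 in controls. No other member fell as far: it was 6.76-fold lower (log2 fold change -2.76, SE 0.05, adjusted p 1.03e-22) and -3.09 on the log2 scale with the GC and length trends removed. By level per kb it ranked 25 of the members in cKO cells and 10 in control cells. The summed ADAMTS level fell to 383 and 393 reads per kb in the cKO libraries, against 1299 and 1347 in the controls. Adamts4 was most of that level in control cells, and the sum fell although 5 of 7 ADAMTS genes rose.

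Those 5 included both listed procollagen processing enzymes. Adamts2, which trims fibrillar procollagens, had 719 and 718 normalised reads in cKO cells, against 326 and 319 in controls (log2 fold change 1.15, SE 0.08, adjusted p 1.82e-11). Adamts14, with the same kind of substrate, rose 2.16-fold at few reads, and removing the GC trend left it uncalled (log2 fold change 0.62, adjusted p 0.0794). With the length trend removed as well, Adamts14 was called (log2 fold change 0.71, adjusted p 0.0403). Adamts12, which degrades cartilage oligomeric matrix protein, had 316 and 284 normalised reads in cKO cells, against 92.0 and 89.6 in controls, 3.30-fold higher (log2 fold change 1.71, SE 0.14, adjusted p 1.26e-10). Adamts15, a versican-cutting enzyme, had 485 and 465 in cKO cells, against 204 and 180.2 in controls (log2 fold change 1.30, SE 0.11, adjusted p 1.59e-10). Adamts10, which takes part in fibrillin assembly, rose 1.52-fold, with a log2 fold change of 0.60 that was 0.14 (adjusted p 0.931) with the GC trend removed. Adamts6 had 72.7 and 75.9 in cKO cells, against 126 and 134 in controls, and its log2 fold change of -0.80 was -0.36 (adjusted p 0.163) with the GC and length trends removed. The listed ADAMTS-like proteins, which lack a protease domain, rose 1.34-fold (Adamtsl3), 1.38-fold (Adamtsl1) and 1.73-fold (Adamtsl4). Once the GC trend was taken out Adamtsl1 was no longer called (log2 fold change 0.16, adjusted p 0.369), and Adamtsl4 shrank to 0.32 on the log2 scale. With the length trend removed as well, Adamtsl1 was called (log2 fold change 0.38, adjusted p 0.00399).

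Secreted MMPs rose without exception among the 4 listed. Mmp2, gelatinase A (ENSMUSG00000031740, chromosome 8, 92827291 to 92853420), had 1238 and 1253 normalised reads in cKO cells, against 428 and 427 in controls, 2.91-fold higher (log2 fold change 1.54, SE 0.07, adjusted p 2.48e-15). Mmp3, stromelysin, which cuts proteoglycans and activates other MMPs (ENSMUSG00000043613, chromosome 9, 7445822 to 7455975), had 86.5 and 65.3 in cKO cells, against 15 and 18.3 in controls (log2 fold change 2.11, SE 0.29, adjusted p 1.27e-06). Its neighbour Mmp12, the macrophage elastase (ENSMUSG00000049723, chromosome 9, 7344381 to 7369499), had 109 and 128 in cKO cells, against 32.0 and 34.6 in controls (log2 fold change 1.80, SE 0.22, adjusted p 1.66e-07). Both were rare, Mmp3 resting on 106 and 55 reads in the cKO libraries and 15 and 18 in the controls, and Mmp12 on 133 and 108 in the cKO libraries and 32 and 34 in the controls. Mmp19, of which 22.3% of exonic bases overlap Tmem198b on the opposite strand, rose 1.78-fold. The fibroblast and microglia marker sums given above were higher in the same cKO libraries, and the part of those cells in the MMP levels was not tested.

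Membrane-bound MMPs were mixed. Mmp14, the activator of pro-Mmp2, had 3173 and 3116 normalised reads in cKO cells, against 2220 and 2178 in controls (log2 fold change 0.52, SE 0.04, adjusted p 4e-10). Mmp23, which lacks the hemopexin domain of most MMPs, had 85.7 and 90.2 in cKO cells, against 19.0 and 27.5 in controls, 3.78-fold higher (log2 fold change 1.90, SE 0.26, adjusted p 1.34e-06). Mmp17 rose 1.39-fold and Mmp15 1.15-fold, but once the GC trend was taken out Mmp17 lost its call (log2 fold change 0.07, adjusted p 1) and Mmp15 reversed (log2 fold change -0.27, adjusted p 2.77e-05). Mmp16 was the exception, with 334 and 271 normalised reads in cKO cells, against 589 and 532 in controls (log2 fold change -0.90, SE 0.10, adjusted p 5.5e-08).

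Both listed inhibitors were higher. Timp2, which with Mmp14 forms the complex that activates Mmp2 (ENSMUSG00000017466, chromosome 11, 118301069 to 118355740), had 15708 and 15572 normalised reads in cKO cells, against 9845 and 9990 in controls, 1.58-fold higher (log2 fold change 0.66, SE 0.03, adjusted p 6.77e-15). Timp1, the TIMP that rises in reactive astrocytes, had 677 and 621 in cKO cells, against 444 and 486 in controls. Its log2 fold change of 0.48 was 0.10 (adjusted p 0.695) with the GC and length trends removed. Per kb, the 2 TIMPs together had 4794 and 4696 reads in the cKO libraries, against 3027 and 3111 in the controls, while the 4 secreted MMPs had 517 and 531 in the cKO libraries, against 192 and 197 in the controls.

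ADAM genes were split, 3 higher and 5 lower. Adam11 and Adam22 encode neural ADAMs without protease activity, of which Adam22 is the receptor of the secreted protein Lgi1. Adam11 had 379 and 371 normalised reads in cKO cells, against 697 and 725 in controls (log2 fold change -0.92, SE 0.08, adjusted p 7.08e-10), and Adam22 had 978 and 971 in cKO cells, against 1596 and 1619 in controls (log2 fold change -0.72). Adam9, a sheddase, was 1.57-fold lower. The main sheddases of the cell surface fell less. Adam10, which sheds Notch and the amyloid precursor protein, had 2921 and 2779 normalised reads in cKO cells, against 3796 and 3587 in controls. Adam17, which releases tumour necrosis factor, had 1754 and 1694 in cKO cells, against 2270 and 2131 in controls. Neither fall was called once the GC trend was removed: the log2 fold change of Adam10, -0.37, turned to 0.09 (adjusted p 0.14), and that of Adam17, -0.35, shrank to -0.10 (adjusted p 0.164). Adam8 rose 1.82-fold, Adam15 1.45-fold and Adam12 1.29-fold, and 20.6% of the exonic bases of Adam15 overlap an antisense gene, 4731419I09Rik. Without the GC trend Adam15 was no longer called (log2 fold change 0.09, adjusted p 0.299). With the length trend removed as well, it was called (log2 fold change 0.20, adjusted p 0.00292).

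**Figure D4:**
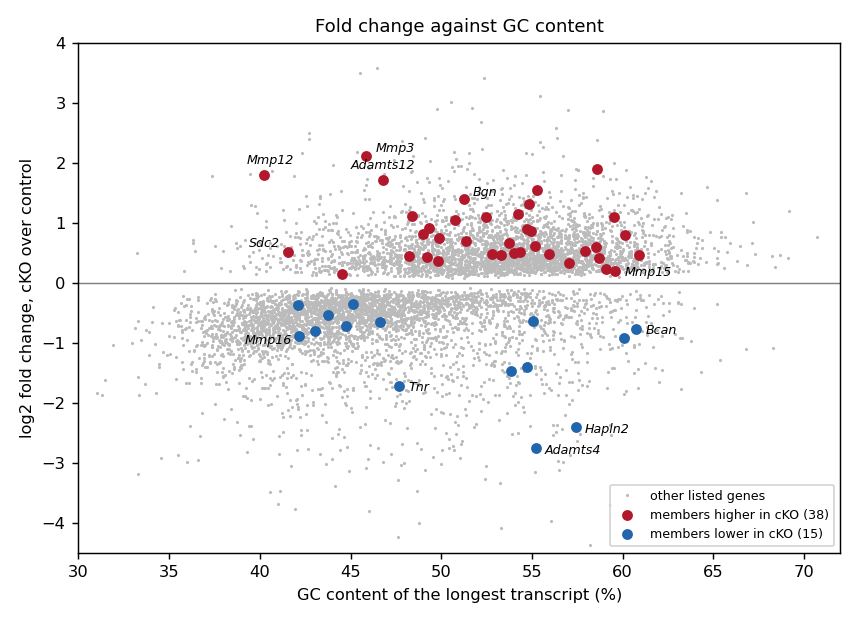
Log2 fold change (cKO over control) against the GC content of the longest transcript (%) for the listed genes, with members that were higher in cKO cells (38) in red and lower (15) in blue; 2 listed genes lie outside the frame. Fold change rises with GC content over all listed genes, while the members' falls include genes at both low (Mmp16, Tnr) and high (Bcan, Hapln2, Adamts4) GC content.

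Fold changes rose with GC content across the listed genes, with a Pearson r of 0.446 over the table, whereas the r over the 53 members was 0.00108. The points share libraries and base composition, and these are descriptions. Members that rose had a median GC content of 53.8% and those that fell 47.7%, beside 53.6% and 45.1% over all listed genes that rose and fell. The median gene length was 5.42 kb among members that rose and 7.15 kb among those that fell. With the GC trend removed 26 members were called higher and 14 lower, beside 2028 higher and 2817 lower of 6934 genes. Of the 53 members 6 reversed, 18 kept their sign but were over 1.5 times smaller, 16 were smaller by less, and 13 were larger. Among the 18, the log2 fold change of Mmp16 shrank to -0.43, that of Adam22 to -0.44, Mmp14 to 0.17, Sdc1 to 0.23 and Timp2 to 0.34, all of which were still called. The falls of Adamts4, Hapln2, Acan, Gpc2, Bcan, Ncan and Adam11 were among the 13 that were larger, with log2 fold changes from -3.14 to -1.01, as were the rises of Mmp12, Adamts12 and Mmp3, at 2.38, 1.83 and 2.31.

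The enzymes that build the sugar chains of these proteins showed no common direction. Of 22 genes for chondroitin and dermatan sulfate chains 11 were listed, of which 5 rose and 6 fell (median log2 fold change -0.13). Chst3, a chondroitin sulfotransferase, had 639 and 685 normalised reads in cKO cells, against 1349 and 1409 in controls (log2 fold change -1.06), and Chst15, which adds a further sulfate, had 178 and 149 in cKO cells, against 81.0 and 96.7 in controls (log2 fold change 0.87). Of 22 heparan sulfate genes 12 were listed, and 8 rose and 4 fell (median 0.21). Hs6st1, a heparan sulfotransferase, had 1951 and 2151 in cKO cells, against 4084 and 4196 in controls (log2 fold change -1.01), and Extl1 rose 1.90-fold. With the GC trend removed 2 chondroitin sulfate genes were called higher and 4 lower. Of the heparan sulfate genes 4 were then called higher and 5 lower, and the balance turned, with 5 above and 7 below 0 and a median log2 fold change of -0.05.

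Of 11 hyaluronan gene names 5 were listed, and 4 rose and 1 fell, Tmem2 and Cemip2 being names of the same gene. Cemip, which takes part in breaking down hyaluronan, had 1419 and 1410 normalised reads in cKO cells, against 391 and 410.3 in controls, 3.53-fold higher, while Tmem2, a cell-surface hyaluronidase, was 1.84-fold lower. Among 21 other proteoglycans 12 were listed, and 11 rose and 1 fell (median log2 fold change 1.08). The small leucine-rich proteoglycan Lum rose 3.44-fold, to 158 and 189.9 normalised reads in cKO cells against 41.0 and 60.1 in controls, and Agrn, agrin, fell 1.40-fold. Dcn and Lum of this list are fibroblast markers as well.

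Among 25 matrix receptors 19 were listed, and 12 rose and 7 fell (median log2 fold change 0.30), while 7 and 6 were called higher and lower once the GC trend was removed. Integrin Itga3 had the largest rise, 2.17-fold, and Itgb3, the partner of integrin alpha V, the largest fall, 2.00-fold. Among 24 other protease system genes 16 were listed, and 12 rose and 4 fell (median 0.36). Serping1, the inhibitor of complement C1, rose 2.74-fold and Reck, a membrane inhibitor of MMPs, fell to 194 and 174 normalised reads in cKO cells, against 290 and 321 in controls. Among the tetraspanin partners of Adam10, Tspan5, Tspan14 and Tspan15 fell and Tspan33 rose, with log2 fold changes of -0.45, -0.48, -0.15 and 0.62. These lists hold genes called by the authors too, so their counts stand beside 46.7% higher and 53.3% lower over the whole table. Their calls with the GC trend removed stand beside 2028 higher and 2817 lower of 6934 genes.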

How the data were processed

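In the deposited table each gene has a normalised signal for every library, genotype means, log2 fold change, raw and adjusted p-values, length and coordinates, per the file headers. Per the submitters' processing notes, DESeq2 was used and the builds were mm10 and GRCm38; for the aligner, counting tool, strand setting and annotation the entry is: not given in the sources used here. Signal values were whole multiples of 1 step per library, so reads were recovered: within 0.01 read, 100% of values in each library came out whole. The table lists genes with the authors' adjusted p under 0.05, out of 17347 behind that adjustment, and 0 columns belonged to other samples.

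The fit was limma 3.58.1 (R 4.3.3) on log2(value + 1) over all 6940 genes, with a variance trend and no term but genotype. This leaves 2 residual degrees of freedom per gene. Each gene's variance was drawn towards the trend over the listed genes, which the authors had already called. Standard errors and p-values are therefore not that gene's own spread alone. All genes had a value of at least 1 in 2 libraries. Benjamini-Hochberg adjustment took 17347 as the number of genes, and an adjusted p under 0.05 was a call. Because the values are normalised, edgeR was not the main test: edgeR 4.0.16 on recovered reads, an alternative, called 38 members higher and 15 lower, and 3244 and 3597 of all genes. DESeq2 1.42.0 was a further alternative. Folds are ratios of mean normalised reads; log2 fold changes understate low genes. GC content was that of the longest GENCODE M21 transcript (6934 genes), and its trend was a spline with 4 degrees of freedom fitted per library, keeping the overall mean. Promoter letters came from RefSeq. The fit was tested on simulated data. Named with values were the 10 largest rises and 10 largest falls among members and a set of well-known members; others were added for completeness. Members, lists and tests were chosen with earlier results of these data known.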

Additional observations from a re-analysis of the deposited data

How the results depend on the processing

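Under 18 alternatives the 53 members kept 38 higher and 15 lower calls with pseudocounts of 0.5 and 10, no filter, TMM or relative log expression factors, edgeR, adjustment over the listed genes only, and without each replicate in turn. A mean of at least 100 left 34 and 12 calls among 46 tested members, limma without the trend 35 and 15, and DESeq2 38 and 13 (Adam17 and Adamts6 lost). Over all listed genes those 3 settings called 3024 higher and 3419 lower of 6443, 2961 and 3501 of 6940, and 3247 and 2521 of 6940. TMM factors called 3244 higher and 3589 lower of 6940, and relative log expression factors 3250 and 2914. The median log2 fold change of the members, 0.48, was 0.55 with TMM factors, 0.67 with relative log expression factors, 0.56 with edgeR, 0.68 with DESeq2, 0.20 with the GC trend removed, alone or with the replicate block, and 0.30 with GC and length trends removed; without each replicate in turn it ran from 0.44 to 0.53. The replicate block left 38 higher and 15 lower calls and a median of 0.48. Same-numbered libraries deviated from their genotype means with a correlation of 0.0133 over 6940 genes, so the numbers are not known to pair them. With the GC trend removed, 26 members were higher and 14 lower, also with the block, and 6 reversed: Gpc1 (-0.237), Mmp15 (-0.265), Fbln2 (-0.0962), Sdc3 (-0.0468), Hspg2 (-0.00928) and Adam10 (0.0932). With GC and length trends removed, 30 were higher and 13 lower, and 3 reversed: Gpc1 (-0.15), Mmp15 (-0.17) and Adam10 (0.0422). Of 6934 genes, 2028 were called higher and 2817 lower with the GC trend removed. With length removed as well, 2016 were called higher and 2865 lower. The cause of the reversals was not tested. In all, 36 members kept direction and call under every alternative in which they were tested. No such count was made over all listed genes. Depth limits Hapln2, Gpc2, Acan, Adamts14, Mmp23 and Mmp3, which had under 110 reads in every library, and 2 libraries per genotype limit every error given.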
